A study of Drosophila melanogaster with 2 samples.

Results

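Axon guidance genes and neural adhesion genes of Drosophila melanogaster were examined for binding of CG15812 in embryos, by chromatin immunoprecipitation followed by sequencing (ChIP-seq). The 40 genes were named as a list and found by symbol among 13945 protein-coding genes of the Ensembl annotation. They comprise 10 ligand genes, 18 receptor genes, 11 genes of adhesion molecules and comm, a regulator of receptor sorting. The list was drawn up with earlier results of these data known, so it is described here and not tested.

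The 2 samples are biological replicates of 1 group. Per the labels, both are whole embryos aged 0 to 24 h, of both sexes pooled, from a transgenic line that stably expresses CG15812 with a green fluorescent protein (GFP) tag at its C terminus. Which promoter drives the transgene is not stated in the labels. The labels call the factor pfk, and the gene meant is CG15812, not the phosphofructokinase gene Pfk. One label field describes the samples as input controls, whereas their assay title is that of a transcription factor ChIP-seq and a control experiment is listed apart from them; here they are taken as ChIP samples. There is no second genotype, age or treatment, so there is no contrast between conditions. In whole embryos, binding in a few cells and weak binding in many cells cannot be told apart, and neither can neural and other tissues.

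Growing axons are steered by ligands that attract or repel their tips and by receptors on the growth cone that read them. Slit and the Robo receptors, the netrins with Frazzled and Unc-5, the semaphorins with the plexins, and ephrin with Eph are the classical pairs, and the fly ventral nerve cord and its midline are where many of them were worked out. Adhesion molecules of the immunoglobulin and leucine-rich repeat families let axons bundle, recognise their own branches and find their muscles.

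Binding was read from a list of 2886 peaks, which the authors derived from both replicates with an irreproducible discovery rate (IDR) threshold. Each peak has a summit, the position of highest signal, and a signal value in the authors' own units. A promoter summit is an IDR summit no more than 1 kb from a transcription start site (TSS) annotated for the gene, and a gene-body summit lies between the gene's annotated ends. In the IDR list the pooled signal ran down to 127.8 with a median of 201.6. A peak of this list need not rank as high in each replicate. Of the 2225 protein-coding genes with a promoter summit, 577 (25.9%) had none among the top 2886 regions of at least 1 replicate list. As a scale, the highest peak of the list, at brat, had 31565 and the peak at the promoter of the CG15812 gene itself had 1783.

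The sequences around the member summits that carry the results are shown on the plus strand of dm6, 5′ to 3′, with 40 bp to each side of the summit, from the RefSeq Release 6 assembly. In the first set, capitals mark GGAACG or its reverse complement CGTTCC, letters that an earlier pass over these data found at summits. These are the highest member promoter (robo2), the highest member summit over 1 kb from any gene's start site (Sema1a), the upstream promoter of Con and the intron of Fas2.
robo2 promoter, chr2L:1420534-1420614: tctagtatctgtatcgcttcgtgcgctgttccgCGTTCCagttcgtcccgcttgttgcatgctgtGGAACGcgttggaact
Sema1a intron, chr2L:8633814-8633894: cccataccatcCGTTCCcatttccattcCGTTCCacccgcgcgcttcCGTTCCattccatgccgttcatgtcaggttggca
Con upstream promoter, chr3L:5079201-5079281: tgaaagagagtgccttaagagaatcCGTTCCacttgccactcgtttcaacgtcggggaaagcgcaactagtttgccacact
Fas2 intron, chrX:4135307-4135387: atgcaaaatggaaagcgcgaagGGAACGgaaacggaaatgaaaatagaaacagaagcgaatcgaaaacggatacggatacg
The robo2 window holds the letters on either strand, 32 bp apart, and the Sema1a window holds 3 copies on 1 strand. A further copy at the Con promoter lies 41 bp from the summit, past the end of the stretch shown.

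In the second set, capitals mark GAGAG or its reverse complement CTCTC, the core letters read by the GAGA factor. These are the internal promoter of Con, the second highest member promoter, and the promoter of NetB, one of the lowest. The Eph promoter is shown as a high summit with neither motif.
Con internal promoter, chr3L:4976319-4976399: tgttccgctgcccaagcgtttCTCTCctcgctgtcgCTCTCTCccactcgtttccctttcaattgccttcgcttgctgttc
NetB promoter, chrX:14749095-14749175: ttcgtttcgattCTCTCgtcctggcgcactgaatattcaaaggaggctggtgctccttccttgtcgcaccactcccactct
Eph promoter, chr4:610563-610643: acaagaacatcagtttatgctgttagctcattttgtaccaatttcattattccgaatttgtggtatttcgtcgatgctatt
The Con window holds 3 copies of CTCTC, 2 of them overlapping, and the NetB window holds 1 of the 2 copies that lie within 50 bp of its summit.

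Promoter summits were found at 20 of the 40 genes, or 50% (95% Wilson interval 35.2 to 64.8%). Over all protein-coding genes the percentage was 16.0 (2225 of 13945). Axon guidance genes are long, with a median of 36.5 kb and a range from 3.81 kb at trn to 145.4 kb at Lar. Of the 27 member genes of at least 20 kb, 12 had a promoter summit (44.4%), against 29.9% of all protein-coding genes of that length (303 of 1013). Of the 13 shorter members, 8 had one (61.5%), against 14.9% of the 12932 shorter genes. The members' share was above that of all genes in both length classes. The shorter members include all 4 on chromosome 4, of which 3 had a promoter summit. On that chromosome 66.2% of all protein-coding genes had one.

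Promoter summits were found at 4 of 10 ligand genes (40%, interval 16.8 to 68.7%), at 9 of 18 receptor genes (50%, interval 29.0 to 71.0%) and at 6 of 11 adhesion genes (54.5%, interval 28.0 to 78.7%). These intervals overlap throughout, and they cover counting error only. The order of the shares depended on the threshold: among the 1443 IDR peaks of highest signal, promoter summits were at 3 of 10 ligand genes (30%), 6 of 18 receptor genes (33.3%) and 2 of 11 adhesion genes (18.2%).

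**Figure D1:**
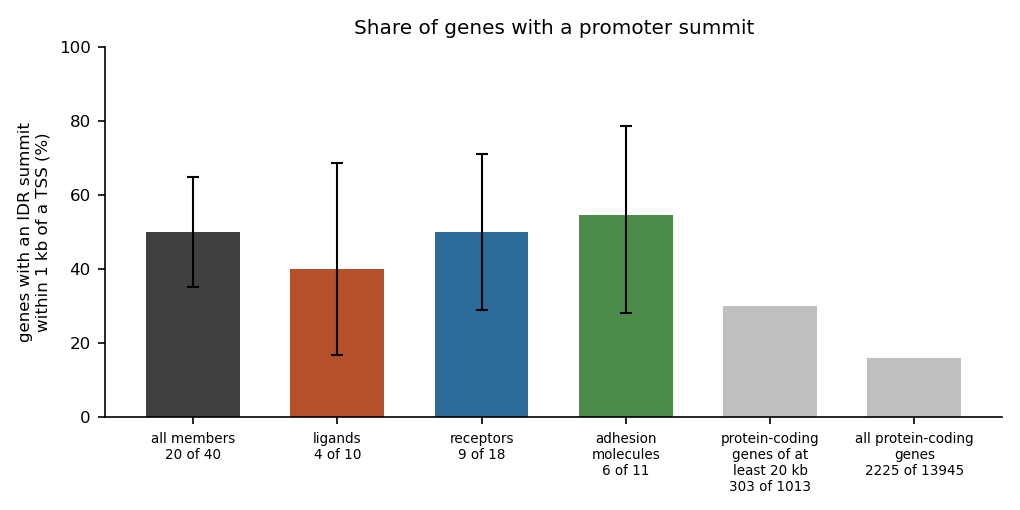
Share of genes (%) with an IDR summit within 1 kb of a TSS. Bars are all members, the 3 main classes, protein-coding genes of at least 20 kb and all protein-coding genes; lines on the member bars are 95% Wilson intervals. The members stand at 50%, against 29.9% of long genes and 16.0% of all genes, and the intervals of the 3 classes overlap.

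The signals at bound promoters covered a wide range. The highest signal per bound promoter had a median of 231.7 over the 20 members and 206.2 over the 2225 bound protein-coding genes. The promoters of robo2, Con, Sema2a, Sema1a, Eph and Ptp69D, reached a signal of 1000 (6 of 20 genes, 30%), as did 12.6% of all bound genes. The other 14 lay under 1000, and 9 of them under 200, which is below the median peak of the list. By class the median was 2012 in ligands (4 genes), 314 in receptors (9 genes) and 175 in adhesion molecules (6 genes), with ranges that overlap. The 4 ligand values were 4064 at Sema2a, 3770 at Sema1a, 254 at Sema5c and 151 at NetB, so no ligand promoter lay near the median of its class.

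**Figure D2:**
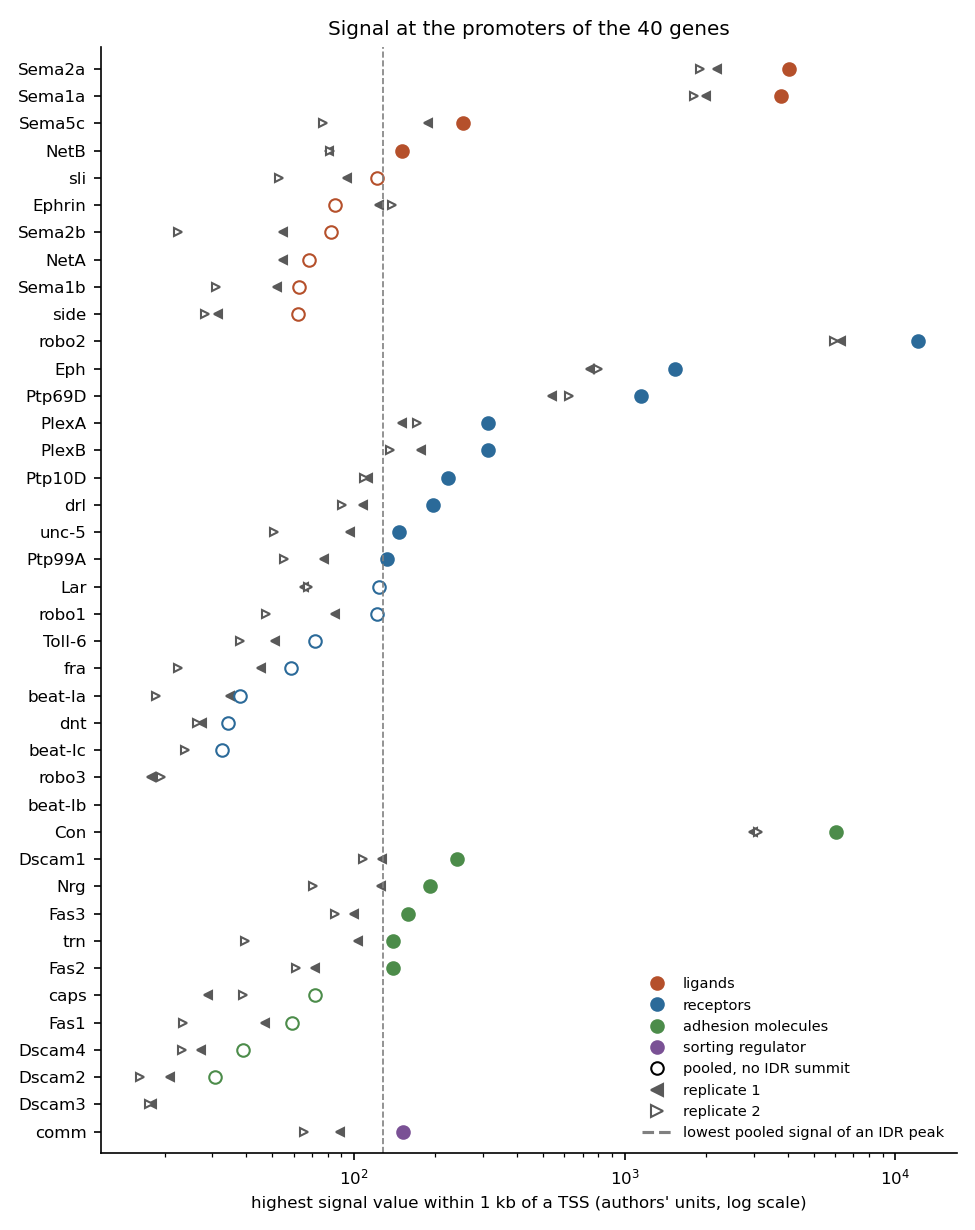
Highest signal value within 1 kb of a TSS for each of the 40 genes (authors' units, log axis), ordered by class and signal. Large circles are the pooled list, filled where the gene has an IDR promoter summit and open where it has none; triangles are the 2 replicates, each on the scale of its own list, and the dashed line is the lowest pooled signal of an IDR peak (127.8). The 6 highest genes stand above 1000 and most others lie close to the line.

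Among the ligands, the semaphorin genes Sema2a and Sema1a held the highest signals. Semaphorins repel or attract axons through plexin receptors; Sema1a is a transmembrane form that can also act as a receptor, and Sema2a is secreted. Sema2a had a promoter summit on arm 2R at 16500054, 124 bp upstream of its TSS, with a pooled signal of 4064 (rank 64 of 2886), 2194 in replicate 1 and 1899 in replicate 2. The TSS of the neighbouring gene knon lies 625 bp from that summit, so the peak counts for both genes.

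Sema1a carried 4 summits, more than any other member. At its promoter on arm 2L they lay at 8541673 with a pooled signal of 2009 (1150 and 895 in replicates 1 and 2), at 8543316 with 757 (461 and 263), and at 8544082 with 3770 (2003 and 1807). The first is 474 bp upstream of a Sema1a TSS and 50 bp from tRNA:Asp-GTC genes, so it is not assigned to Sema1a alone. The other 2 share 1 called region, from 8543139 to 8544505, and lie 14 bp upstream and 752 bp downstream of the same TSS. The fourth summit, at 8633854 in an intron 90524 bp downstream of that TSS, had a pooled signal of 1687 (919 and 772). It is the intron window with 3 copies of GGAACG shown above.

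Sema5c, a transmembrane semaphorin, had 2 weaker summits on arm 3L whose replicates differed in opposite directions. At the promoter summit (12081836, 6 bp upstream) the pooled signal was 254, with 189 in replicate 1 and 76.8 in replicate 2. In the intron (12077787, 4043 bp downstream) it was 221, with 79.5 in replicate 1 and 149 in replicate 2. These values differ by more between the replicates than the 2 summits differ from each other in the pooled list. Sema1b and Sema2b, a transmembrane and a secreted paralog, had no IDR summit; their highest pooled signals in the relaxed list were 62.9 and 82.7.

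Netrins are secreted cues of the midline. NetB had a promoter summit on X at 14749135, 125 bp upstream of a TSS and inside an intron of a longer transcript, with a pooled signal of 151 (80.8 and 81.8 in replicates 1 and 2). A second summit lay in an intron at 14717469 with 153 (59.1 and 93.1). NetA, its paralog, had no IDR summit and a highest pooled signal of 68.2. Both NetB values are near the bottom of the IDR list, at ranks 2182 and 2137.

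Slit, the midline repellent, had no promoter summit. Its 1 summit, on arm 2R at 15898046, lay in an intron, 1483 bp from any annotated TSS, with a pooled signal of 613 (295 in replicate 1 and 322 in replicate 2). At the sli promoters the highest pooled signal was 121.3, just below the lowest IDR peak. Ephrin, the membrane ligand of Eph, and side, which guides motor axons to muscle, had no IDR summit, with highest pooled signals of 84.9 and 72.9.

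Among the receptors, robo2 had by far the highest signal. The Robo proteins are Slit receptors, and robo2 and robo3 also set how far from the midline an axon runs. The robo2 summit on arm 2L at 1420574, 121 bp upstream of its TSS, had a pooled signal of 12137, the eighth of 2886 peaks, with 6295 in replicate 1 (rank 9) and 5923 in replicate 2 (rank 5). Its called region runs from 1420024 to 1421396. No other gene's TSS lies within 1 kb. At robo1, the main receptor for midline repulsion, the highest pooled signal was 121.9 (85.5 and 47.3 in replicates 1 and 2), below the IDR peaks. At robo3 the pooled list had no region at a promoter, and the replicate lists had 17.8 and 19.4. Of the 3 paralogs, robo2 was thus the only one with an IDR summit.

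The receptor genes of the other ligand pairs were mostly bound. Frazzled, the attractive netrin receptor, had 2 intronic summits on arm 2R, at 12532108 with a pooled signal of 215 (108 and 107 in replicates 1 and 2) and at 12538261 with 309 (165 and 144), and no promoter summit. The repulsive netrin receptor gene unc-5 had a promoter summit on arm 2R at 15339672, 800 bp upstream, with 146 (96.7 and 50.9), and an intronic summit at 15352377 with 398 (228 and 169). The promoter value of unc-5 is near the bottom of the list and the intronic value is higher in either replicate.

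The plexin genes PlexA and PlexB, whose products bind semaphorins of the transmembrane and the secreted kind, had near-equal promoter summits on chromosome 4. PlexA had a pooled signal of 314 at 1027234 (151 in replicate 1 and 171 in replicate 2), and PlexB had 314 at 43827 (177 and 136). Eph, the ephrin receptor and also on chromosome 4, had a summit at 610603, 81 bp upstream of its TSS, with 1538 (745 and 801). Chromosome 4 is small, and 66.2% of its protein-coding genes had a promoter summit (53 of 80), so 3 bound genes among the 4 members there is near its background. Off chromosome 4, 17 of 36 members had one (47.2%).

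The receptor tyrosine phosphatases, which act in motor and retinal axons, all had signal at or near the IDR limit or above it. Ptp69D had a promoter summit on arm 3L at 12734866 with a pooled signal of 1146 (541 and 622 in replicates 1 and 2), and the TSS of SmD1 lies 255 bp from it. Ptp10D had a promoter summit on X at 11622030 with 223 (113 and 109) and a higher one in an intron at 11640653, 18638 bp downstream, with 1297 (709 and 595). Ptp99A had 132 (77.5 and 55.1) on arm 3R at 29479185, next to an internal TSS, the lowest value among the 20 bound promoters. Lar had no IDR summit, with 123.5 at a promoter (65.2 and 67.5). The values of Ptp99A and Lar overlap between the replicates although they fall on different sides of the threshold.

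Of the remaining receptors, drl, an atypical kinase that reads Wnt5, had a promoter summit on arm 2L at 19190373 with a pooled signal of 197 (108 and 90.3 in replicates 1 and 2). Its relative dnt had none, with a highest pooled signal of 96.3. The 3 beat genes, whose proteins include receptors for Side, had no promoter summit, and beat-Ia and beat-Ic had no IDR summit at all, with highest pooled signals of 47.7 and 32.6. beat-Ib had 2 summits in an intron on arm 2L, at 15909057 with 178 (138 and 41.7) and at 15911139 with 189 (80.4 and 112), and the second lies 552 bp from the TSS of lncRNA:CR44867. The first of these showed the largest replicate difference of all member summits. Toll-6, a leucine-rich repeat receptor, reached 71.9.

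Among the adhesion molecules, Con stood far above the rest. Connectin is a leucine-rich repeat protein found on subsets of motor neurons and muscles. Con has start sites 102.9 kb apart on arm 3L, and both had a promoter summit. The internal promoter had a summit at 4976359 with a pooled signal of 6027 (rank 38), 2978 in replicate 1 and 3120 in replicate 2. The upstream promoter had one at 5079241 with 539 (281 and 268). Its leucine-rich repeat relatives were low: trn had 140 at 13114238 (104 and 39.6) and caps had an intronic summit at 13235659 with 159 (92.5 and 60.3).

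Dscam1 makes very many isoforms by alternative splicing, by which a neuron recognises its own branches. It had a promoter summit on arm 2R at 7381854 with a pooled signal of 240 (127 and 108 in replicates 1 and 2). Its 3 paralogs had no IDR summit: the pooled list reached 30.6 at Dscam2 and 39.1 at Dscam4, and had no region at Dscam3. Dscam1 was the only one of the 4 in the IDR list.

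The fasciclins and Neuroglian bundle axons. Fas3 had a promoter summit on arm 2L at 18320097 with 159 (100 and 85.3 in replicates 1 and 2), and Nrg, the L1-type molecule, had one on X at 8517373, at the TSS itself, with 190 (126 and 70.6). Fas2 had 140 at its promoter (4206034; 71.8 and 61.4) and 2 intronic summits, at 4202578 with 214 (114 and 97.9) and at 4135347 with 140 (82.4 and 57.0). Fas1 had none, with a highest pooled signal of 59.3. All promoter values of this group lay under the median of the IDR list.

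The sorting regulator comm, which keeps Robo off the growth cone surface so that axons can cross the midline, had a promoter summit on arm 3L at 15728381, 49 bp downstream of its TSS. Its pooled signal was 152 (88.7 in replicate 1 and 65.4 in replicate 2).

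The 16 genes without any IDR summit were not empty in the relaxed lists. Of these, 15 had a region in the pooled list, with a highest signal between 30.6 and 123.5 and a median of 68.2. The exception, Dscam3, had regions only in the replicate lists, at 17.99 and 17.51. A relaxed region at a promoter in both replicates was found for 37 of the 40 members and for 53.8% of all protein-coding genes (7505), and the relaxed lists include background. At the threshold, Ptp99A (132.3), Fas2 (139.6 at its promoter) and trn (140.0) lay just inside, and Lar (123.5), robo1 (121.9) and the sli promoter (121.3) just outside.

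Gene-body summits were found at 16 of the 40 genes (40%), against 8.68% of all protein-coding genes. Among members of at least 20 kb the share was 13 of 27 (48.1%), against 33.4% of all genes of that length. Over 1 kb from the TSS of any gene, 10 members had one (25%), against 3.04% of all genes; for the long genes it was 9 of 27 (33.3%), against 21.7%. Such far summits were at 4 of 10 ligand genes (40%), 4 of 18 receptor genes (22.2%) and 2 of 11 adhesion genes (18.2%). Among class members of at least 20 kb the shares were 42.9%, 36.4% and 22.2%, the last close to that of all long genes. A promoter or gene-body summit was found at 24 members (60%), against 17.9% of all genes; 12 had both, 8 a promoter summit only and 4 a gene-body summit only.

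The 24 genes held 36 summits. At promoters there were 23, of which 16 were upstream of the TSS and 13 within 100 bp of it; 12 lay outside the gene, 7 in a 5′ UTR and 4 in an intron. Another gene's TSS lay within 1 kb of 5 of the 23, a coding gene's in 2 cases (knon and SmD1). The 13 summits over 1 kb from the gene's own start sites were all in introns, and their median signal of 215 was close to the 254 at promoters. The relaxed pooled regions were no denser in long members than in other long genes, at a median of 1.89 and 1.86 per 10 kb.

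**Figure D3:**
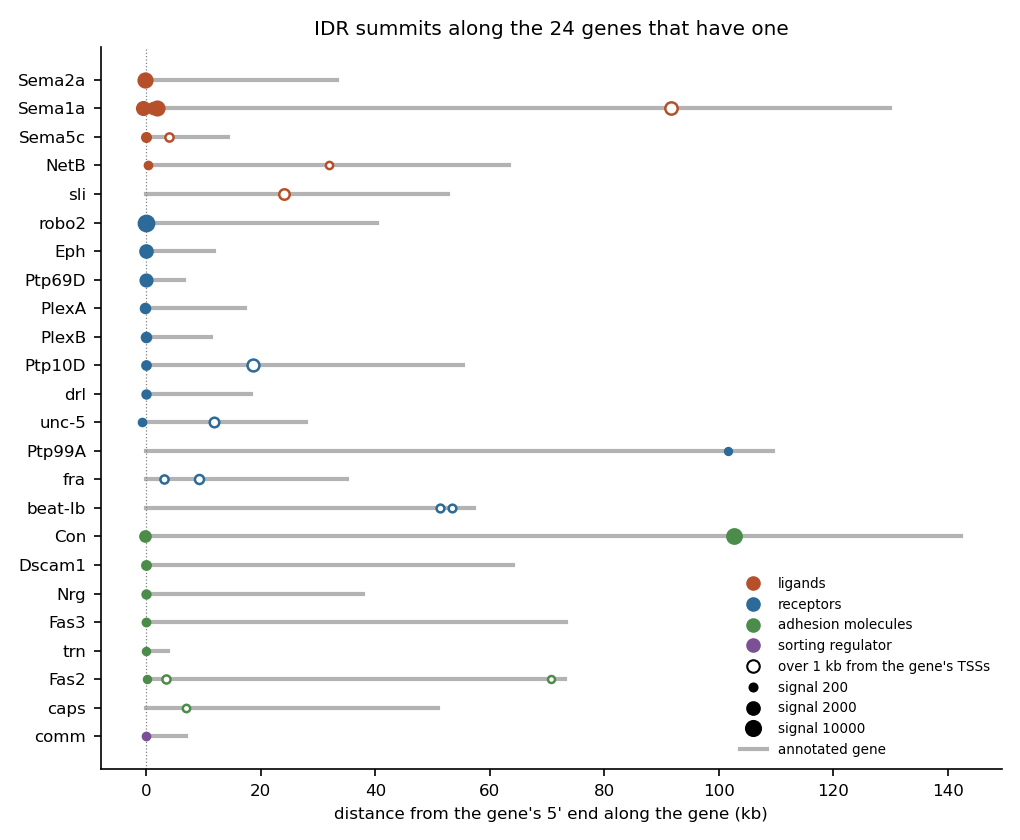
Position of the 36 IDR summits along the 24 genes that have one, as distance (kb) from the gene's 5′ end; grey lines are the annotated genes, filled circles are summits within 1 kb of a TSS, open circles are farther away, and circle size grows with the pooled signal. Most summits sit at the 5′ end, and Sema1a, Con, Ptp99A, beat-Ib and Fas2 have summits over 50 kb inside the gene.

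The replicates ranked the strong summits alike and differed at the weak ones. All 9 member summits within the first 300 of the pooled ranks were also within the first 300 of both replicate lists. The log2 signal of replicate 1 minus replicate 2 had a median of 0.23 over the 36 summits (SD 0.53), close to 0.21 over all IDR summits (SD 0.54), and 27 of 36 were higher in replicate 1. A difference over 1 was seen at 3 summits, in beat-Ib (1.73), trn (1.39) and Sema5c (1.30), and at 242 of the 2860 IDR summits matched in both lists. In at least 1 of the replicate lists, 8 of the 36 ranked beyond 2886, the length of the IDR list. Neither this count nor that of the first 300 was made over all IDR summits. Counted by gene, 25.9% of all those with a promoter summit had none among the top 2886 regions of at least 1 replicate list. The pooled ranks themselves derive from both replicates.

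**Figure D4:**
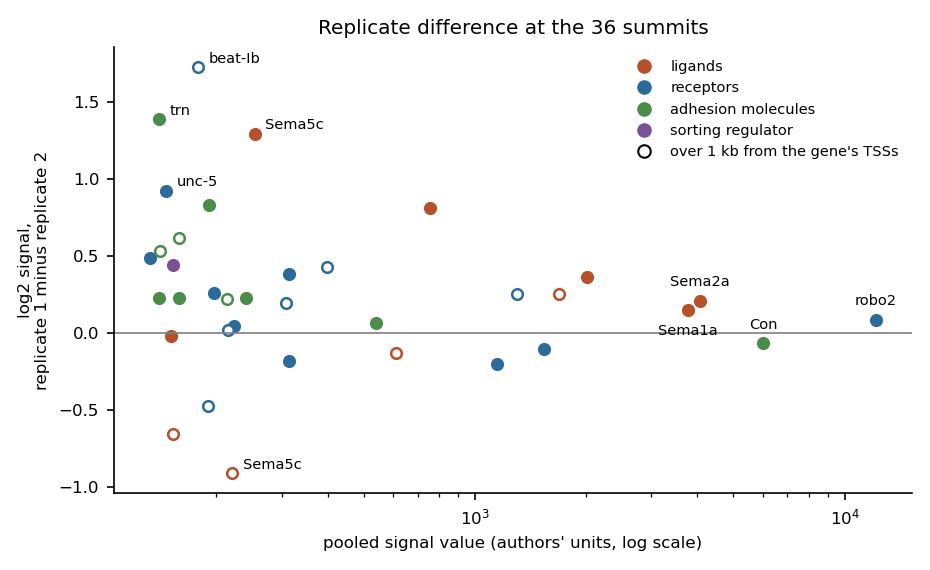
Log2 signal of replicate 1 minus replicate 2 against the pooled signal (authors' units, log axis) at the 36 member summits; colours are the classes and open circles lie over 1 kb from the gene's start sites. The spread is widest below a pooled signal of 300, and the 4 highest summits (robo2, Con, Sema2a and Sema1a) lie near 0.

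The sequence at member summits was described by 4 motifs, read on either strand within 50 bp of the summit. GGAACG, marked in the first set of sequences above, was at 3 of 23 member promoter summits (13.0%), against 13.8% of all 2045 IDR promoter summits and 3.17% of windows around 19252 start sites. Over 1 kb from any TSS it was at 4 of 12 member summits (33.3%), in Sema1a, fra, unc-5 and Fas2, against 16.9% of 841 such IDR summits. At promoters the members' share was thus that of the background.

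GAGAG was at 10 of 23 member promoter summits (43.5%), against 19.0% of all IDR promoter summits and 12.7% of start site windows. Of the members' own 66 start site windows, bound or not, 15 held it (22.7%). The copies were split unevenly over the classes, a pattern seen after the values were known: 5 of 6 promoter summits of ligand genes, 0 of 9 of receptor genes and 5 of 7 of adhesion genes held it. Of the 6 ligand summits, 3 are at Sema1a. The median GC content of the windows was 50.5% at member promoter summits and 44.6% at all IDR promoter summits, and its part in the GAGAG share was not tested. TATCGATA, a core promoter element, was at 0 of the 23 and at 3.33% of all IDR promoter summits. CGATA, the shorter form that TATCGATA holds, was at 4 (17.4%) and 22.1%.

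Beyond the 40 genes, 79 other genes of the same pathways were looked up from a list that was also drawn up with earlier results known. Promoter summits were found at 27 of them (34.2%), against 16.0% of all protein-coding genes. Of the 46 of at least 20 kb, 12 had one (26.1%), against 29.9% of all genes of that length. The cytoplasmic effectors, which link receptors to actin, had the highest share, 12 of 19 (63.2%), and the adhesion genes outside the list the lowest, 6 of 28 (21.4%). A mixed class of further ligands, receptors and relatives of the members had 5 of 14 (35.7%). Its secreted ligands Wnt4 and Wnt5 had no promoter summit, so this is not a share of ligand genes. The beat and side paralogs had 4 of 18 (22.2%). The highest of these promoters was that of Toll-7 with a pooled signal of 627 (321 in replicate 1 and 310 in replicate 2). It was followed by the GTPase Rho1 with 523 (290 and 244), beat-IIIa with 464 (247 and 224), the neuronal cadherin CadN with 422 (253 and 166), the GTPase Mtl with 404 (210 and 195) and the teneurin Ten-a with 305 (147 and 168). No promoter of the 79 genes reached a signal of 1000. Gene-body summits were found at 16 of the 79, against 8.68% of all protein-coding genes. Over 1 kb from any TSS, 8 of the 79 had one, against 3.04% of all genes. Among all genes of at least 20 kb these shares were 33.4% and 21.7%. Only 46 of the 79 are that long and the counts include the shorter ones, so the long-gene shares are not a matched background. The highest gene-body signal of the 79 was in CadN, with a pooled signal of 1913. Nedd4, a ubiquitin ligase, had the next with 722. The CadN value lay above the 1687 of the Sema1a intron. It lay below the highest gene-body values of Con (6027) and Sema1a (3770), whose summits are also promoter summits. These gene-body values were singled out after they were seen.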

How the data were processed

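The 2 samples were mapped to 1 group from their titles. The authors deposited 4 peak lists on dm6. Per the notes deposited with them, each replicate list came from its alignment and 1 shared control, the pooled list from both alignments and that control, and the IDR list from those lists. The 3 relaxed lists hold 30000 regions each. Not given in the sources used here: the aligner, the peak caller and the IDR cutoff. The lists hold no read counts, so depth is unknown. The authors deposited a signal score per region, whose normalization is not stated, and a −log10 q-value, which is 3.95 at every IDR peak. The summit offset is the authors' own.

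Computed here, with Python 3.11.15, pandas 2.3.3, numpy 2.4.6 and scipy 1.17.1, were distances of summits to Ensembl start sites (1 kb), overlaps with gene bodies, matches of replicate summits within 200 bp, and motifs within 50 bp in the RefSeq Release 6 sequence. Regions on Y were left out. Counting steps were tested on simulated peaks. There is no contrast, so no test was made; shares stand beside those of all genes. The members, classes, further genes and motifs were chosen with earlier results of these data known. All 40 members are named. Of the other pathway genes, the 6 with the highest promoter summit are named, and Nedd4, Wnt4 and Wnt5 besides. One of 80 further symbols did not match. Intervals are 95% Wilson intervals and cover counting error only.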

Additional observations from a re-analysis of the deposited data

How the results depend on the processing

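Of 67 recomputed values, 58 stayed within 1.5 times the reported count or within the replicate spread. The threshold had the largest effect. Among the 1443 IDR peaks of highest signal (lowest 201.7), 11 members kept a promoter summit, 9 a gene-body summit and 15 either. Receptor genes with a gene-body summit came to 3, adhesion genes with a promoter summit to 2 and with a gene-body summit to 3, and 8.26% of all protein-coding genes had a promoter summit. The genes lost were Fas2, Fas3, NetB, Nrg, Ptp99A, comm, drl, trn and unc-5. GAGAG was then at 7 of 14 member promoter summits, an alternative added after seeing the data. Counting overlap of the called region in place of the summit gave 11 receptor genes with a gene-body hit. Over all members the gene-body count rose from 16 to 24, equal to the 24 with either kind of hit. The group with a promoter summit only thus depends on counting summits. For the gene-body and either counts in this paragraph the share over all genes was not computed. The 5 letters GGAAC, also added later, were at 8 member promoter summits, or 34.8%, against 26.1% of all.

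The same number of regions was also taken from 1 replicate list alone. Promoter summits were then found at 18 members without replicate 1 and 22 without replicate 2 (16 and 19 shared with the IDR list). Over all protein-coding genes the promoter share was 15.3% without replicate 1 and 16.2% without replicate 2. Gene-body summits were found at 17 to 18 members, far summits at 9 to 11 and either at 24 to 26. For these counts the share over all genes was not computed. Without replicate 1, Fas2, Ptp99A, trn and unc-5 dropped out and Ephrin and Lar came in; without replicate 2, Fas2 dropped out and Ephrin, robo1 and sli came in. No paired analysis was possible because the 2 samples form 1 group.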

Other observations

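At Ephrin, a ligand gene on chromosome 4 with no IDR summit, both replicate lists held a summit upstream of the TSS that the pooled list did not have. The summit lay 897 bp upstream in replicate 1, with a signal of 123.7 (rank 1290), and 889 bp upstream in replicate 2, with 138.5 (rank 953). The pooled list had summits 701 bp upstream, with a signal of 45.1, and 35 bp downstream, with 84.9, so the pooled signal was lower than that of either replicate. At 36 of the 37 members with a pooled promoter region, all but Ephrin, the pooled signal was above both replicates. The same share over all protein-coding genes was not computed, so how common such a case is remains unknown. The gene was singled out after its values were seen. Over all protein-coding genes, 1670 had a promoter summit among the top regions of both replicates, and 22 of these, Ephrin included, had none in the IDR list.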
